A study of Mus musculus with 10 samples.

Results

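A set of 10 genes of insulin-like growth factor 1 signaling was followed in mouse hearts with a deletion of Larp7. Its product LARP7 is an RNA-binding protein of the 7SK complex that restrains the transcription elongation kinase P-TEFb. They are the ligand gene Igf1, the receptor genes Igf1r and Insr, the adaptor gene Irs1 and the binding protein genes Igfbp2, Igfbp3, Igfbp4, Igfbp5, Igfbp6 and Igfbp7. They were chosen by gene symbol from the 20983 symbols of the deposited tables, where all 10 are among the 15498 genes listed at embryonic day E15.5 and 9 are among the 15989 listed in the adult, Igfbp2 being the exception. All mice were on the C57BL/6 background. The embryonic samples were whole hearts at E15.5 of the genotype Larp7-/- (3 samples) and of the genotype Larp7+/+ (3 samples). The adult samples were heart apex from 4-month-old mice of the genotype Myh6Cre;Larp7f/f (2 samples) and of the genotype Larp7f/f (2 samples). Both adult groups carry floxed Larp7 alleles, and the control label names no Cre, so an effect of Cre and an effect of losing Larp7 cannot be told apart there. The promoter of Myh6 drives Cre in cardiomyocytes, which leaves the gene intact in the other cells of the apex.

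IGF-1 is a peptide hormone made by the liver under growth hormone and also locally, in the heart mainly by non-muscle cells. It binds the receptor tyrosine kinase IGF1R, a close relative of the insulin receptor INSR, and both recruit insulin receptor substrates such as IRS1 to switch on the PI3K-AKT and RAS-MAPK cascades, which promote growth and survival of cardiomyocytes. The IGF-binding proteins hold the ligand in extracellular fluid, prolong its life, keep it from the receptor or release it after cleavage by proteases, and several also act on matrix or cells without the ligand.

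The deposited tables give per-million values as whole numbers, and each sample sums to between 998498 and 1001508, so sequencing depth is unknown and no counting interval can be given. Within nearly every gene, each knockout value and that of the control with the same number have a constant sum, which held within 2 units in 99.5% of E15.5 genes and 99.8% of adult genes with a mean of at least 10. A high value in 1 sample therefore goes with a low value in its same-numbered partner, and a gene's SD in the knockout nearly equals that in the control, without being an independent estimate. Nothing in the labels says whether the replicates were different animals, and the p-values therefore reflect the spread of these samples alone, which may be technical. Every log2 change is knockout over control on the log2(value + 1) scale, fitted with limma on all genes of a table with the replicate number as a block, and p-values are adjusted by Benjamini-Hochberg over all genes tested. A gene is said to have passed the test, or to have been called, at an adjusted p under 0.05. With 3 against 3 samples an exact permutation test of a single gene cannot go below p = 0.1, and with 2 against 2 not below 0.333. The median change of all genes tested was 0.11 in E15.5 hearts and 0.08 in adult apex, on the log2 scale.

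Larp7 itself had 45, 54 and 40 in the E15.5 knockout hearts against 96, 88 and 103 in the wild type, with a log2 difference of -1.04 (SE 0.17, adjusted p = 0.00159, limma). In the adult apex it had 26 and 24 in the knockout against 26 and 28 in the control (log2 -0.11, adjusted p = 0.933, limma), so its RNA does not check the adult genotype labels. The embryonic call of Larp7 was lost with the block but no allowance for rounding (adjusted p = 0.473, limma), with only genes of a mean of at least 10 (0.332) and with the spread pooled without trend and robust options (0.529).

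In the adult apex, transcripts of the ligand and of 3 binding proteins were higher in the cardiomyocyte knockout: Igf1, Igfbp5, Igfbp6 and Igfbp7 each rose by a factor of 1.55 to 1.62. The receptor genes Igf1r and Insr, the adaptor gene Irs1 and the binding protein gene Igfbp3 did not pass the test, and Igfbp4 had a higher mean that missed it. Of the 9 members tested, 4 were called, all as higher, where 3.29% of all 14835 genes were called in either direction and 2.34% as higher. The median log2 change of the 9 was 0.38.

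**Figure D1:**
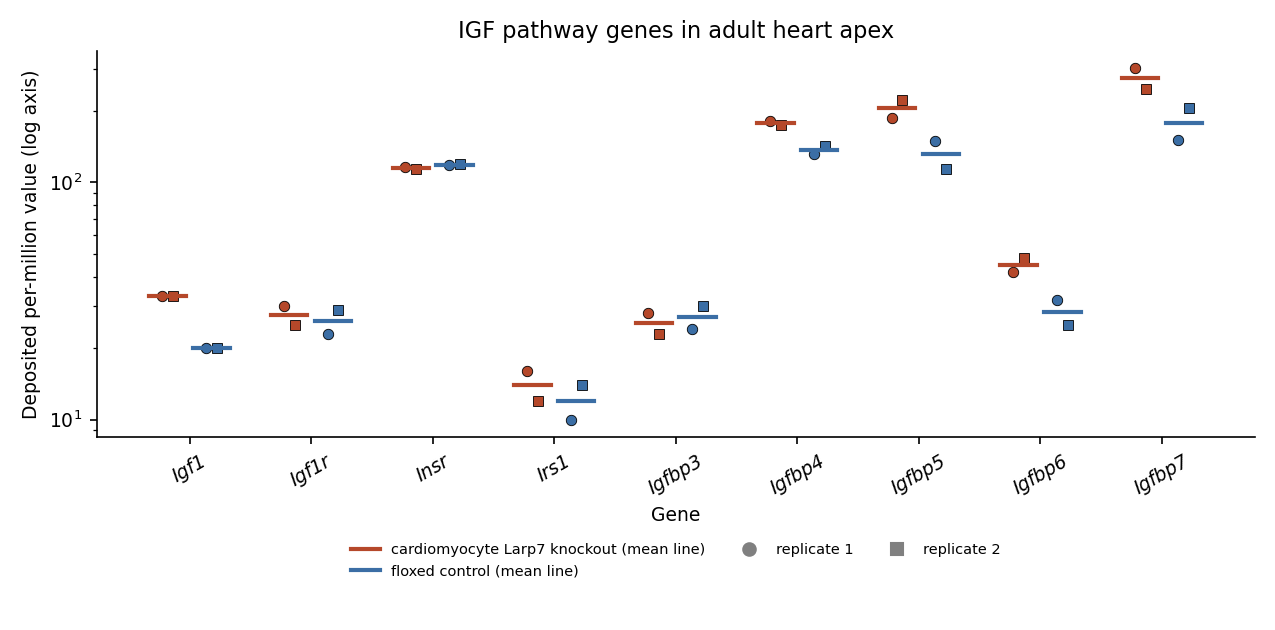
Deposited per-million values (log axis) of the 9 listed genes in adult heart apex, with a point per sample, a shape per replicate number and a line at each group mean (n = 2 per group). Igf1, Igfbp4, Igfbp5, Igfbp6 and Igfbp7 lie higher in both knockout samples than in both control samples, whereas Igf1r, Irs1 and Igfbp3 overlap.

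Igf1, the ligand gene (chromosome 10, 87858265 to 87937042, plus strand, mm10), had 33 and 33 in the knockout apex against 20 and 20 in the control. The samples of a group were identical after rounding and the groups did not overlap. Its log2 change was 0.70 (SE 0.17, adjusted p = 0.00368, limma). Since its samples show no spread, this SE comes from the spread of other genes of like level. It lost its call when the spread was pooled without trend and robust options (adjusted p = 0.315, limma). With no replicate block it was called (adjusted p = 0.0213, limma). It was also called with the block and no allowance for rounding (adjusted p = 0.028, limma), at an SE of 0.0026 because its values are tied. Leaving out any 1 sample could not change its estimate, for the same reason, and is no check of it. The authors' deposited table gives Igf1 0.66 on the log2 scale and an unadjusted p of 0.24.

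Igfbp5, which encodes a matrix-associated binding protein (chromosome 1, 72857932 to 72874884, minus strand), had 187 and 222 in the knockout apex against 149 and 114 in the control, without overlap. Its log2 change was 0.64 (SE 0.15, adjusted p = 0.00102, limma), but the difference within number 2 (0.96 on the log2 scale) was larger than that within number 1 (0.33). Igfbp6, whose product prefers IGF-2 over IGF-1 (chromosome 15, 102144362 to 102149511, plus strand), had 42 and 48 against 32 and 25. It likewise did not overlap and differed more within number 2 (0.91) than within number 1 (0.38), and its log2 change was 0.65 (SE 0.16, adjusted p = 0.00357, limma).

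Igfbp7, which encodes a secreted protein of vessels and matrix with low affinity for IGFs (chromosome 5, 77349240 to 77408041, minus strand), had 302 and 246 in the knockout apex against 150 and 205 in the control. Here the difference was larger within number 1 (log2 1.00) than within number 2 (0.26). The log2 change was 0.63 (SE 0.14, adjusted p = 0.0011, limma), and without number 1 of the control, in a fit with no block, it was 0.41 (adjusted p = 0.0278, limma). Igfbp5, Igfbp6 and Igfbp7 vary more between their own samples (residual SD 0.31, 0.27 and 0.37 on the log2 scale) than the pooled SD that the test used for them (0.15, 0.16 and 0.14), so their p-values rest on the spread of other genes. Without the replicate block they were not called (adjusted p = 0.0977, 0.0703 and 0.137 for Igfbp5, Igfbp6 and Igfbp7, limma). They were also not called with the block and no allowance for rounding (adjusted p = 0.62 for each, limma) or with the spread pooled without trend and robust options (0.445, 0.425 and 0.467). The authors' deposited table gives unadjusted p-values of 0.0355, 0.226 and 0.0189 for Igfbp5, Igfbp6 and Igfbp7.

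Igfbp4, which encodes a soluble inhibitory binding protein that the protease PAPP-A cleaves (chromosome 11, 99041244 to 99054392, plus strand), had 182 and 174 in the knockout apex against 132 and 142 in the control. The groups did not overlap, and the log2 change of 0.38 (SE 0.15) had an adjusted p of 0.168 (limma). It was called with no replicate block (adjusted p = 0.0492, limma) and without number 2 of either group (0.0235 without the knockout sample and 0.0114 without the control sample). In all, 5 members lay higher in both knockout samples and 1 lower, where 42.1% of all genes had groups that did not overlap, 29.3% with the knockout higher.

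The remaining adult members did not pass the test, and their intervals include 0. Igf1r, the IGF-1 receptor gene (chromosome 7, 67952827 to 68233668, plus strand), had 30 and 25 in the knockout apex against 23 and 29 in the control, with a log2 change of 0.08 and a 95% interval of -0.25 to 0.41. Insr, the insulin receptor gene (chromosome 8, 3122061 to 3279617, minus strand), had 116 and 114 against 118 and 119, with a log2 change of -0.04 and an interval of -0.33 to 0.24. The Insr groups did not overlap, but the difference is small beside that interval. Irs1, the gene of the main substrate of both receptors (chromosome 1, 82233101 to 82291416, minus strand), had 16 and 12 against 10 and 14 (log2 0.21, interval -0.21 to 0.63). Igfbp3, the gene of the main circulating carrier of IGFs (chromosome 11, 7206086 to 7213923, minus strand), had 28 and 23 against 24 and 30 (log2 -0.08, interval -0.41 to 0.26). In Igf1r, Irs1 and Igfbp3 the number 1 samples differed in 1 direction and the number 2 samples in the other.

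The RefSeq promoter windows of the adult genes that passed the test (build GRCm38.p6, from 250 bases before to 50 after the start, read along the gene's strand) are printed because these 4 genes were called together, and capitals mark matches to any of 6 motifs searched on both strands. The TATA box was searched as TATAAA, and the CCAAT box by the letters of its name. The GC box was searched as GGGCGG, the FoxO motif as GTAAACA and the AP-1 motif as TGANTCA. The E-box was searched as CACGTG, and no match overlapped another in these 4 windows.
Igf1, chr10:87860861-87861160, plus strand: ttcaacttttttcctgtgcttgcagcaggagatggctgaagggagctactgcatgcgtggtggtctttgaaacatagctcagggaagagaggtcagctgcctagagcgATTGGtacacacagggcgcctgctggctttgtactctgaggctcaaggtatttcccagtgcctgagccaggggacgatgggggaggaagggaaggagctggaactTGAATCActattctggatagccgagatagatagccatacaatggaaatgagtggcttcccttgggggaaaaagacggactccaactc
Igfbp5, chr1:72874816-72875115, minus strand: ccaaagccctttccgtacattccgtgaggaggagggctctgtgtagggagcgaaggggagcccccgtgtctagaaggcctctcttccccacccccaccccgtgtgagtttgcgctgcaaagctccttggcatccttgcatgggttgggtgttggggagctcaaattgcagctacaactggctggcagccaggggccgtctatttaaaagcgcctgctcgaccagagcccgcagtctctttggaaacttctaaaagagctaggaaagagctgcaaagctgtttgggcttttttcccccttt
Igfbp6, chr15:102143936-102144235, plus strand: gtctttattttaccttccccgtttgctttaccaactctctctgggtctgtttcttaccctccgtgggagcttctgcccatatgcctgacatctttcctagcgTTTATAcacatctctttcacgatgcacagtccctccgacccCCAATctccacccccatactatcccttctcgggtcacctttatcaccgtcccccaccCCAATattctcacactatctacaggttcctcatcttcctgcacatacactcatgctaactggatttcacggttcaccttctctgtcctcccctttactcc
Igfbp7, chr5:77407996-77408295, minus strand: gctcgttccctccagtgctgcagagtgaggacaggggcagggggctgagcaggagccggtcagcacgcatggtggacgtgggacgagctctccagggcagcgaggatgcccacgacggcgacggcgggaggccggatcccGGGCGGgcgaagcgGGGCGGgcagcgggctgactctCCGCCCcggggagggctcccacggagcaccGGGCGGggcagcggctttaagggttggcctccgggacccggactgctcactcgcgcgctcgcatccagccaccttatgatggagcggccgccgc

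The Igfbp7 window held 4 GC boxes and a G and C content of 73.3%. The Igfbp6 window held 2 CCAAT boxes and 1 TATA box in reverse orientation, at a G and C content of 49.7%. The Igf1 window held 1 CCAAT box in reverse orientation and 1 AP-1 match 37 bases before the start, at 52.3%, and the Igfbp5 window held none of the 6 motifs, at 56.3%. Of all 32851 promoter windows, 35.7% held a GC box, 37.4% a CCAAT box, 13.6% a TATA box, 7.81% an AP-1 match, 7.15% an E-box and 3.65% a FoxO match, and the median G and C content was 52.7%. No FoxO match lay in any window of the 9 members found in the RefSeq table, Insr having no entry there. These matches describe letters and not bound sites.

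Summed levels of several marker lists also lay apart between the adult groups. The 8 fibroblast markers summed to 2587 and 2270 in the knockout apex against 1185 and 1500 in the control, with 7 of 8 having a positive change and 0 called (limma). The 7 epicardial markers summed to 77 to 116 against 24 to 64, with 7 of 7 positive and Aldh1a2 and Krt19 called as higher. Krt19 had 4 and 8 in the knockout against 4 and 0 in the control, which overlap and are near the limit of rounding. Its residual SD was 1.59 on the log2 scale, and the pooled SD that the test used was 0.42. The residual SD was also above the pooled SD for Aldh1a2 (0.69 against 0.20). Of the called cardiomyocyte markers given below, this held for Myh7 (0.54 against 0.14) and not for Atp2a2 (0.03 against 0.12). The 8 macrophage markers summed to 714 to 717 against 615 to 619. Over all adult genes 57.9% had a positive change. The cardiomyocyte markers summed to 65633 to 66613 against 71533 to 72512 (3 of 9 positive, Myh7 called as higher and Atp2a2 as lower), the endothelial to 763 to 800 against 818 to 853 (1 of 8) and the mural to 1116 to 1122 against 1204 to 1208 (2 of 8). Erythroid markers summed to 1273 and 2888 in the knockout against 1486 and 129 in the control (7 of 7 positive). Within number 1 the knockout sum was the lower, so these positive changes rest on number 2. The 2 listed markers of stratified epithelium summed to 4 to 5 in both groups. None of the listed markers was at 0 in every sample. Igf1, Igfbp4, Igfbp5 and Igfbp6 are expressed by fibroblasts and Igfbp7 by vessel and stromal cells. The part of these cell types in the higher values was not tested, and in bulk tissue more cells of a type cannot be told apart from more RNA per cell.

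At E15.5 none of the 10 members passed the test. Most had higher knockout means (8 of 10 with a positive log2 change, where 60.4% of all 13609 genes did), and Igfbp6 and Igfbp7 had lower ones. In limma 0 of 10 were called, 3 of them (Igf1, Igfbp2 and Igfbp7) having an unadjusted p under 0.05. Over all genes 0.632% were called, 0.529% as higher and 0.103% as lower, and 13.9% had an unadjusted p under 0.05. The median log2 change of the members was 0.35. The plot of the embryonic values shows that the replicates differ widely for Irs1 and Igfbp3.

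**Figure D2:**
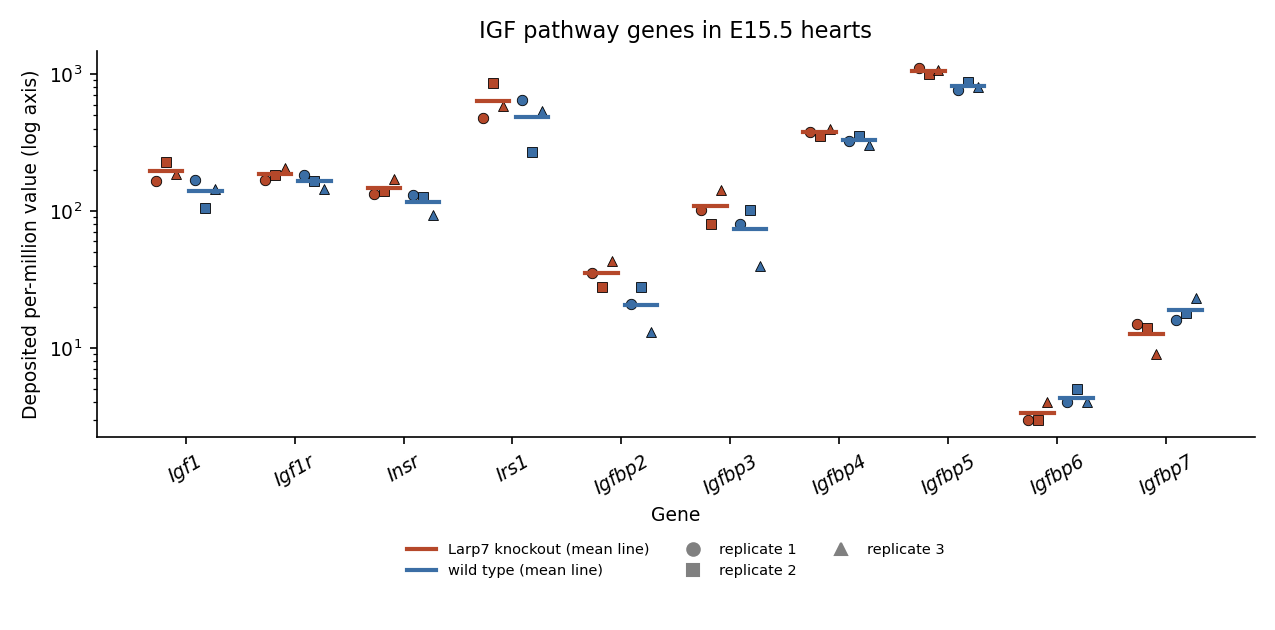
Deposited per-million values (log axis) of the 10 genes in E15.5 hearts, with a point per sample, a shape per replicate number and a line at each group mean (n = 3 per group). Insr, Igfbp4 and Igfbp5 lie higher and Igfbp7 lower in all knockout samples than in all wild-type samples, and the other 6 genes overlap.

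Igf1 had 166, 230 and 188 in the knockout hearts against 169, 105 and 146 in the wild type. The groups overlapped, since the number 1 samples were nearly equal and the number 2 samples differed most. The means were 194.7 ± 32.5 in the knockout and 140 ± 32.4 in the wild type (SD, n = 3), and the log2 change was 0.49 (SE 0.20, adjusted p = 0.29, limma). Without number 2 of either group the change was 0.17.

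Of the receptor genes, Insr had 133, 139 and 170 in the knockout hearts against 130, 126 and 94 in the wild type. The groups did not overlap, but most of the difference lay within number 3, and the log2 change of 0.34 (SE 0.17) had an adjusted p of 0.384 (limma). Without number 3 of either group the Insr change was 0.09. Igf1r had 169, 184 and 207 against 183, 167 and 144, which overlap, at a log2 difference of 0.18 (SE 0.17, adjusted p = 0.672, limma).

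Irs1 had 479, 855 and 585 in the knockout hearts against 644, 270 and 539 in the wild type. Number 1 of the knockout was below its wild-type partner and number 2 far above it, so that the log2 change of 0.45 had an SE of 0.57 (adjusted p = 0.789, limma). Without number 2 of either group the Irs1 change was -0.15. The exons of Irs1 overlap those of Gm9747, annotated as protein coding on the opposite strand, by 2822 of 9144 exon bases, and no source used here states whether counting used strand. Gm9747 had 381, 690 and 450 in the knockout hearts against 518, 210 and 450 in the wild type, with its low and high values in the same samples as Irs1. Reads of these genes cannot be told apart here.

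Among the binding protein genes, Igfbp5 had 1103, 997 and 1065 in the knockout hearts against 771, 877 and 809 in the wild type. Every knockout sample was above every wild-type sample, with means of 1055 ± 53.7 in the knockout and 819 ± 53.7 in the wild type (SD, n = 3). The log2 change was 0.37 (SE 0.18, adjusted p = 0.36, limma). It was called only with neither the replicate block nor an allowance for rounding (adjusted p = 0.0437, limma). Igfbp4 had 376, 352 and 397 against 327, 351 and 306, and the number 2 samples of both groups were nearly equal (log2 0.19, SE 0.17, adjusted p = 0.644, limma).

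Igfbp2, a binding protein gene that lies tail to tail with Igfbp5 on chromosome 1 (72824503 to 72852474, plus strand, 5457 bases from it), had 35, 28 and 43 in the knockout hearts against 21, 28 and 13 in the wild type. The number 2 samples were equal, and the log2 change was 0.79 (SE 0.31, adjusted p = 0.335, limma). Igfbp3 had 101, 81 and 142 against 81, 102 and 40, with its difference mostly within number 3 (log2 0.60, SE 0.59, adjusted p = 0.753, limma). Both depend on single numbers. With the block kept, leaving out 1 sample also takes its partner out of the comparison, so the changes then rest on the other pairs. Without number 2 of either group, Igfbp2 had a change of 1.18 and Igfbp3 one of 1.06. Their adjusted p-values were 0.000108 and 0.0149 without the knockout sample, and 0.000119 and 0.0103 without the wild-type sample (limma). These 2 removals compare the same pairs and are not separate checks. Without number 3 of either group Igfbp2 had a change of 0.36 and Igfbp3 one of -0.007. Igfbp2 was also called with no filter on low values (adjusted p = 0.00423, limma).

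Igfbp7 had 15, 14 and 9 in the knockout hearts against 16, 18 and 23 in the wild type, and every knockout sample was below every wild-type sample. Its log2 change was -0.56 (SE 0.24, adjusted p = 0.28, limma), and without number 3 of either group it was -0.21. The exons of Igfbp7 share 85 of 1209 bases with Polr2b on the opposite strand, and Polr2b had 94, 116 and 101 against 100, 79 and 93 at E15.5 and 54 and 49 against 48 and 54 in the adult. Igfbp6 was near the limit of rounding, with 3, 3 and 4 against 4, 5 and 4 (log2 -0.30, SE 0.31, adjusted p = 0.707, limma). In all, 3 members lay higher and 1 lower without overlap at E15.5, where 28.1% of all genes did not overlap, 19.3% with the knockout higher and 8.75% with it lower.

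**Figure D3:**
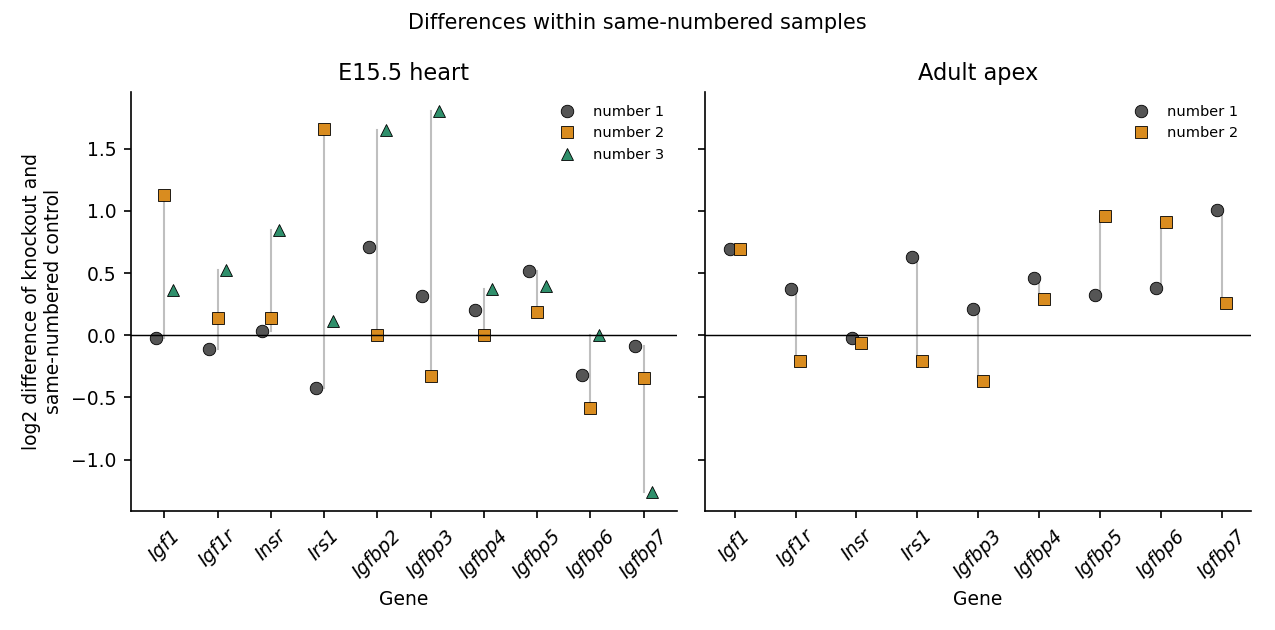
Difference of each knockout sample and its same-numbered control on the log2(value + 1) scale, at E15.5 (numbers 1 to 3, left) and in the adult (numbers 1 and 2, right). At E15.5 the differences of Irs1 run from -0.43 to 1.66 and those of Igfbp3 from -0.33 to 1.80, while both adult differences of Igf1 are 0.70.

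Beside these values the 6 listed of 9 cardiomyocyte markers summed to 14948 to 18314 in the E15.5 knockout hearts against 19840 to 23206 in the wild type, with 0 of 6 having a positive change and none called (limma). The 5 listed fibroblast markers summed to 4561 to 5476 against 3683 to 4601 (4 of 5 positive, Pdgfra called as higher), the 8 endothelial markers to 1252 to 1369 against 1153 to 1271 (6 of 8), and the 4 listed epicardial markers to 207 to 299 against 146 to 238 (3 of 4). Mural markers summed to 339 to 389 against 319 to 370 (2 of 4 positive, Rgs5 called as lower), and macrophage markers to 66 to 77 against 72 to 81 (1 of 4). Erythroid markers summed to 4689, 4663 and 9262 in the knockout against 7579, 7606 and 3009 in the wild type (5 of 7 positive). Number 3 thus ran opposite to numbers 1 and 2. The 4 listed markers of stratified epithelium summed to 183, 51 and 53 in the knockout against 49 to 80 in the wild type, number 1 of the knockout standing apart. Over all E15.5 genes 60.4% had a positive change. The part of these cells in the values of the members was not tested. Without number 1 of the knockout, whose wild-type partner then no longer informed the change, 0 of 10 members were called in limma. Of these members, 5 had an unadjusted p under 0.05. Over all 13609 genes tested in that fit, 213 were called and 1404 had such a p.

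**Figure D4:**
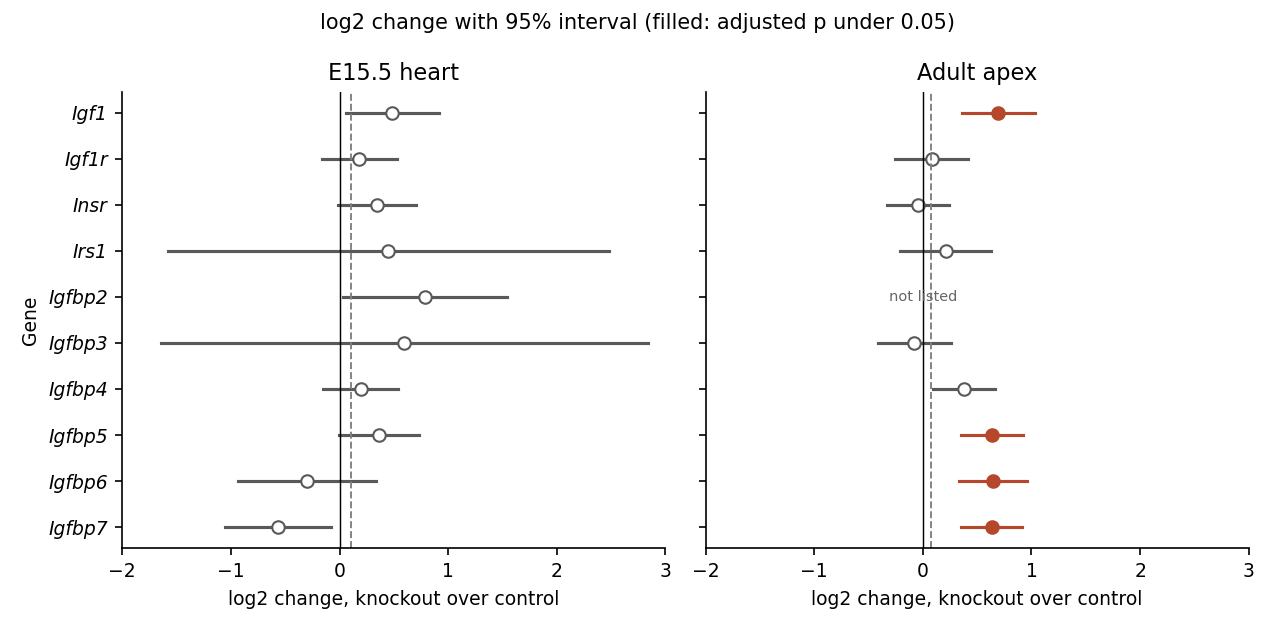
Log2 change of each gene, knockout over control, with its 95% interval from limma (filled points have an adjusted p under 0.05), for both stages. The solid line marks 0 and the dashed line the median of all genes (0.11 and 0.08); Igf1, Igfbp5, Igfbp6 and Igfbp7 are filled in the adult, and none is at E15.5.

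The control levels of the members differ between the stages, set side by side here from tables that were scaled separately, from other parts of the heart and with no test. The mean of Igf1 was 20 in the adult control and 140 in the E15.5 wild type, that of Igf1r 26 and 164.7, and that of Irs1 12 and 484.3. Insr had nearly the same value in both, 118.5 and 116.7. Among the binding proteins Igfbp5 had 131.5 in the adult control and 819 at E15.5, Igfbp4 137 and 328, and Igfbp3 27 and 74.3. Igfbp6 and Igfbp7 ran the other way, at 28.5 and 177.5 in the adult control against 4.33 and 19 at E15.5. The adult group means were thus 33 in the knockout and 20 in the control for Igf1, and 14 in the knockout and 12 in the control for Irs1, where rounding to whole numbers is coarse.

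The wider pathway was followed in 79 further genes of 9 lists. At E15.5, 59 were listed and tested, and in limma 0 were called in either direction, with 10 at an unadjusted p under 0.05 (0.632% of all genes were called and 13.9% had such a p). In the adult 75 were listed and 73 tested, with 0 called in limma and 6 at an unadjusted p under 0.05 (3.29% of all genes were called and 12.4% had such a p). Their median was 0.16 on the log2 scale at E15.5, and it was 0.10 in the adult apex. The plot of the pathway lists shows their changes by list.

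**Figure D5:**
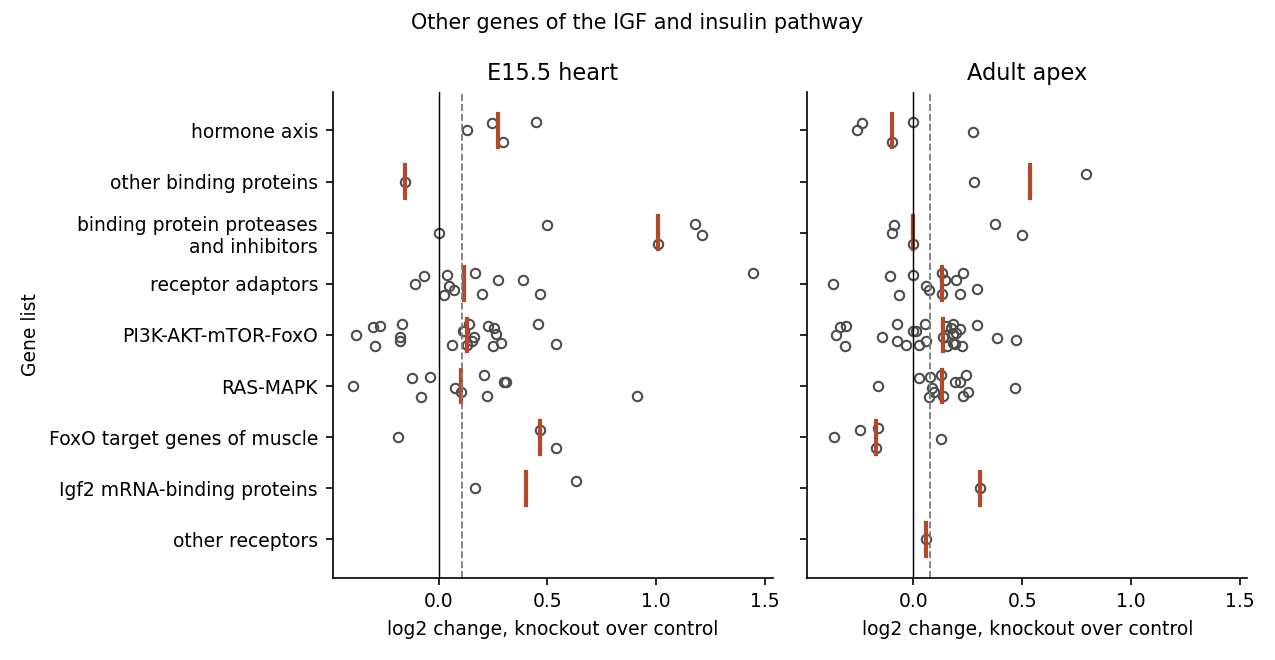
Log2 change, knockout over control, of the other IGF and insulin pathway genes by list, for both stages. Circles are genes, red bars list medians, the solid line 0 and the dashed line the median of all genes. The list of binding protein proteases and inhibitors has a median of 1.01 on the E15.5 side and of 0 on the adult side, and no gene passed the test. The median of 1.01 is the change of Pappa2, whose values are near the limit of rounding.

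Upstream of the receptors, the growth hormone axis was led by Stat5a at E15.5, a transcription factor of growth hormone signaling with 15, 15 and 16 in the knockout hearts against 11, 12 and 10 in the wild type (adjusted p = 0.371, limma). In the adult it was led by its relative Stat5b, with 60 and 60 against 72 and 72 (log2 -0.26, adjusted p = 0.5, limma). Neither gene's groups overlapped. Igf2r, the clearance receptor of IGF-2, led the other receptors in the adult with 172 and 154 against 148 and 165. The other binding protein Igfbpl1 had 16, 12 and 14 against 14, 18 and 15 at E15.5 and 2 and 2 against 2 and 0 in the adult. Of the proteases and inhibitors, Pappa2, which cleaves binding proteins, had 6, 4 and 6 against 2, 4 and 1 at E15.5 (log2 1.01, SE 0.35, adjusted p = 0.187, limma). These Pappa2 values are near the limit of rounding, and the number 2 samples were equal. In the adult the PAPP-A inhibitor Stc1 had 5 and 6 against 4 and 4.

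Downstream, Shc1, an adaptor that links the receptors to RAS, had 148, 166 and 176 in the E15.5 knockout hearts against 134, 116 and 105 in the wild type (log2 0.47, adjusted p = 0.188, limma). The adult list of adaptors was led by Grb14, an inhibitor of the insulin receptor, with 120 and 128 in the knockout apex against 165 and 156 in the control (log2 -0.37, adjusted p = 0.185, limma). Neither overlapped between groups, and neither passed the test. Positive changes were seen in 10 of 12 adaptors and 14 of 21 PI3K-AKT genes at E15.5, where 60.4% of all genes had one. In the adult they were seen in 9 of 13 and 18 of 27, where 57.9% of all genes had one. In the PI3K-AKT list Foxo1, a transcription factor that AKT keeps out of the nucleus, led at E15.5 with 66, 66 and 72 against 51, 52 and 45 (log2 0.46, adjusted p = 0.187, limma), and Deptor, an mTOR inhibitor, led in the adult with 28 and 24 against 17 and 20 (log2 0.47, adjusted p = 0.156, limma).

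Of the RAS-MAPK genes, 13 of 14 had a positive change in the adult (median log2 0.13) and 7 of 11 at E15.5 (median 0.10), where 57.9% of all adult genes and 60.4% of all E15.5 genes had one. Hras led at E15.5 with 42, 35 and 30 against 41, 48 and 52 (log2 -0.39, adjusted p = 0.302, limma). The kinase gene Rps6ka1 led in the adult with 11 and 9 against 6 and 8 (log2 0.46, adjusted p = 0.465, limma). Bnip3, a mitophagy gene that FoxO factors induce in muscle, led its list at both stages, in opposite directions. It had 237, 298 and 288 against 226, 166 and 176 at E15.5 (log2 0.54, adjusted p = 0.149, limma) and 58 and 77 against 97 and 77 in the adult (log2 -0.37, adjusted p = 0.198, limma). Igf2bp1, which binds Igf2 mRNA, had 357, 472 and 359 against 298, 183 and 296 at E15.5, and its relative Igf2bp2 had 7 and 7 against 5 and 6 in the adult.

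The genes most like a member across samples were sought for the member with the smallest p in each table, by Pearson's r of log2(value + 1) among genes with a mean of at least 10. Over the 6 E15.5 samples these were Shfm1 (r = 0.999), Romo1 (0.999) and Adhfe1 (0.997) for Igfbp7, where 232 of 8365 genes had an r above 0.95. Romo1, a mitochondrial membrane protein gene, had 24, 23 and 15 in the knockout hearts against 25, 28 and 35 in the wild type. Over the 4 adult samples Tnfaip2, Anxa1 and Ccdc50 came first for Igfbp5, among 816 of 8657 genes with an r above 0.95. Anxa1, the gene of annexin A1, had 49 and 60 in the knockout apex against 37 and 27 in the control. These r values are descriptions over few samples, whose constant sums leave few independent patterns.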

How the data were processed

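RNA of 6 samples of E15.5 heart and 4 samples of adult heart apex was sequenced, per the labels, which do not say whether these were different animals. Per the submitters' processing notes, the tools include HISAT2 and HTSeq and the build is mm10. For each model the authors deposited a score per gene and sample, a per-million value rounded to whole numbers; no source used here gives its scaling or adjustment. The authors also deposited log2 fold changes and p-values of their own (the headers use DESeq2's names).

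In each table, limma 3.58.1 (R 4.3.3) compared knockout and control samples as log2(value + 1). Genes reaching 1 in at least as many samples as a group holds were kept. The variance of rounding, 0.0833 in units of the deposited values, was converted to the log2 scale at each gene's mean value. It was then added to that gene's variance, so that it adds little at high values. The replicate number was a block, and eBayes used trend and robust options. The numbers act as pairs because same-numbered values add to a fixed total in the deposited values (relative deviations of partners correlate at -0.97 to -0.92 at E15.5 and at -0.93 in the adult, across genes), not because the labels state a pairing. Residual degrees of freedom are 2 at E15.5 and 1 in the adult, where the median gene's prior has infinite degrees of freedom, so its SE rests on spread pooled over genes. The fit was run on simulated data with known changes. Noise there was centered within each gene, so that run cannot measure how often unchanged genes are called.

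Alternatives were the block, rounding variance, pseudocounts of 0.5 and 5, filters, median-of-ratios scaling, the prior, and leaving out each sample. At E15.5 the block was kept when a sample was left out, so its partner no longer informed the change. The members, lists and tests were chosen with earlier results of these data known. Named genes are Larp7, all members, the gene with the smallest p in each pathway list and table (none was called), and the 3 genes most like the member with the smallest p; Polr2b and Gm9747 were added for exon overlap in GENCODE M21, and the markers that were called, after values were seen, as were Adam12, Stc2, Pappa, Htra1, Irs2 and Igf2. Sequences are RefSeq's.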

Additional observations from a re-analysis of the deposited data

Results flagged for a closer look

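The changes of Insr and Igfbp7 had opposite directions in the embryonic and the adult model in every same-numbered pair of samples. Insr had a log2 change of -0.04 in the adult and 0.34 at E15.5, and was called in neither. Igfbp7 had a log2 change of 0.63 in the adult, where it was called, and -0.56 at E15.5, where it was not (adjusted p = 0.28, limma). The difference between the models was not tested, since the tables were scaled separately, and they differ in age, part of the heart and kind of deletion, which cannot be told apart.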

How the results depend on the processing

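Every count of called genes depended on the test. At E15.5, 86 genes were called, and the count was 604 with no replicate block (members 0, pathway genes 2), 1040 with neither block nor rounding variance (members 1, pathway genes 3), 601 with no filter (members 1, pathway genes 7), 232 with a pseudocount of 5, 46 with a pseudocount of 0.5 and 39 with median-of-ratios scaling (66.7% higher against 83.7%). It was 0 with the replicate block alone, without rounding variance (1422 genes at an unadjusted p under 0.05), 0 with a mean of at least 10 (1100) and 0 with neither trend nor robust options (1166, limma). Leaving out 1 sample, which with the block kept also took its partner out of the comparison, called 213 to 505 genes, 0 to 2 members and 1 to 6 pathway genes.

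In the adult, 488 genes were called, and with median-of-ratios scaling 495 (57.6% higher against 71.1%). Of the members, 4 were called, against 2 with no replicate block (pathway genes 2, all genes 409). With the replicate block alone 1 member was called (pathway genes 2, all genes 1130). With neither block nor rounding variance it was also 1 (pathway genes 3, all genes 1622). With neither trend nor robust options 0 members were called (limma). Leaving out 1 sample, fitted with no block since none was left for residual spread, called 4 to 5 members, 0 to 6 pathway genes and 606 to 1281 genes, the lone sample of a group being assumed to vary like the others. Pairing number 1 with number 2 called 6285 genes. That count is no test, since the constant sums make both crossed differences equal in the deposited values, which leaves little residual spread.

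Among single genes the sign turned only when a sample was left out. Irs1 at E15.5 ranged from -0.15 (without either number 2) to 0.89, and Igfbp3 at E15.5 from -0.00704 (without either number 3) to 1.06. In the adult Igf1r ranged from -0.0796 (without number 1 of the control; -0.05 without number 1 of the knockout) to 0.24, Irs1 from -0.0129 (without number 1 of the control) to 0.43, and Igfbp3 from -0.23 to 0.0776 (without number 2 of the control; 0.06 without number 2 of the knockout). The causes were not tested. Depth is unknown, and rounding limits values near those of Igfbp6 at E15.5.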

Other observations

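Of 5 genes of binding protein proteases and inhibitors tested at E15.5, 4 had a positive change, where 60.4% of all genes did, and none passed the test (limma). The genes named here were picked after their values were seen, and the group was not tested. Adam12 had 17, 16 and 18 in the knockout hearts against 17, 18 and 16 in the wild type, a log2 change of 0. Stc2, an inhibitor of PAPP-A, had 45, 58 and 68 in the knockout hearts against 38, 25 and 15 in the wild type, without overlap (log2 1.18, SE 0.44, adjusted p = 0.413, limma). Pappa, the gene of PAPP-A itself, had 7, 9 and 12 against 6, 5 and 1 (log2 1.21, SE 0.51, adjusted p = 0.378, limma). The protease gene Htra1 had 44, 32 and 47 against 26, 38 and 23, with an overlap. In the adult apex Stc2 had 18 and 12 in the knockout against 13 and 19 in the control, and Htra1 81 and 74 against 80 and 86.

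Irs2, a relative of Irs1, had 44, 41 and 86 in the E15.5 knockout hearts against 38, 41 and 4 in the wild type, so that nearly all of its difference (log2 1.44, SE 1.28) lay within number 3. Igf2, the embryonic ligand, had 860, 724 and 839 in the E15.5 knockout hearts against 686, 822 and 708 in the wild type (log2 0.13, adjusted p = 0.781, limma). In the adult apex it had 2 and 0 against 0 and 2.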
